A study of Mus musculus with 6 samples.

Results

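The cytosolic ribosomal protein genes were followed in macrophages of mouse white adipose tissue, sorted by the surface proteins F4/80 and CD11b. Members were the protein-coding genes whose symbol is Rpl or Rps followed by a digit, together with Rplp0, Rplp1, Rplp2 and Rpsa. S6 kinase genes and numbered pseudogenes were left out. The rule used names and no measured value, and it took 86 of the 57180 genes in the table. Of these, 52 carried Rpl or Rplp symbols, for the large (60S) subunit, and 34 carried Rps or Rpsa symbols, for the small (40S) subunit. One of the 34, Rps19bp1, encodes a protein that binds Rps19 and regulates the deacetylase SIRT1, and is no subunit of the ribosome. Bulk RNA sequencing covered 2 groups of wild-type mice: 3 libraries labelled HFD, from mice on a high-fat diet, and 3 labelled HFD+MGIG, from mice on the same diet given magnesium isoglycyrrhizinate. That compound is the magnesium salt of isoglycyrrhizic acid, a relative of the licorice saponin glycyrrhizic acid. The labels used here give no age, dose or duration, and do not state that the libraries stem from different animals; p-values therefore cover only the spread among these libraries, which may be technical.

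Ribosomal proteins, together with the ribosomal RNAs, form the particles that translate mRNA, and each subunit needs its proteins in matched amounts. Their mRNAs belong to the TOP class, named for a terminal oligopyrimidine tract: transcription starts at a cytosine that is followed by an unbroken run of cytosine and thymine. Through this tract their translation follows the activity of the kinase complex mTORC1 and the RNA-binding protein Larp1. In mammals most of these genes have 1 expressed, intron-containing copy and many processed pseudogenes, which are inserted copies of the mRNA.

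The start sites of the genes were searched for such a tract and for common promoter motifs. The windows printed here run from 50 bases before to 20 bases after the annotated start, 5′ to 3′ on the gene's strand, and come from RefSeq promoters of GRCm38.p6, which held 66 of the 86 members. Rps6, Rps18 and Rps3a1 are shown as 3 of the most abundant members, Rps7 and Rpl38 as the members with the lowest fold changes over all genes, and Rps27 beside its intronless copy Rps27rt. Capitals mark a pyrimidine tract of a C and at least 4 more C or T that begins at the start, and the ETS-family motif CCGGAAG or its reverse complement CTTCCGG.
Rps6 (chr4:86857348-86857417, minus strand): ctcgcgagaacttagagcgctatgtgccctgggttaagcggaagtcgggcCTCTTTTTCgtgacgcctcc
Rps18 (chr17:33955646-33955715, minus strand): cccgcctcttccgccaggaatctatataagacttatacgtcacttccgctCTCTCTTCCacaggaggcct
Rps3a1 (chr3:86142649-86142718, minus strand): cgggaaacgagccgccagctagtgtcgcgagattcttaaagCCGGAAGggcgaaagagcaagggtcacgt
Rps7 (chr12:28635934-28636003, minus strand): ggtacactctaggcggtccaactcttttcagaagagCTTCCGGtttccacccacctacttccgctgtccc
Rpl38 (chr11:114668530-114668599, plus strand): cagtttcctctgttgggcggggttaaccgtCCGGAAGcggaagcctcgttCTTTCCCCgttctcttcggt
Rps27 (chr3:90213629-90213698, minus strand): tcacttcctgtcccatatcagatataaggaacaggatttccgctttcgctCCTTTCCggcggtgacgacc
Rps27rt (chr9:114982720-114982789, minus strand): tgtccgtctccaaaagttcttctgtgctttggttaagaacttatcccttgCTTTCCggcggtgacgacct
The windows of Rps27 and Rps27rt share a run of 19 bases, while the longest run shared by the 50 bases before their starts is 5 bases.

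A tract that begins exactly at an annotated start was present in 14 of the 66 members (21.2%), against 3.01% of 27025 genes with a promoter window. Annotated starts can lie a few bases from the main start, and a run of at least 8 C or T that begins with C, from 30 bases before to 50 after the start, was present in 50 members (75.8%), against 26.0% of all genes. Over the whole window of 250 bases before to 50 after, searched on both strands, CCGGAAG was present in 39.4% of members and 9.93% of all genes. The SP1 motif GGGCGG was present in 62.1% and 38.2%, the YY1 motif AAGATGG in 15.2% and 7.28%, the E-box CACGTG in 9.09% and 8.09%, and the TATA box TATAAA in 10.6% and 15.7%. Of the letters shown, neither Rps3a1 nor Rps7 has a tract at its annotated start. These matches are descriptions of sequence and were not related to binding data.

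Total counts per library were 14437605 to 16740417 in HFD and 2214456 to 4904302 in HFD+MGIG. Genes of silent receptor, keratin-associated and defensin families (1596 genes) took 0.0624% to 0.280% of counts in the HFD libraries and 2.93% to 6.42% in HFD+MGIG. The libraries thus differ by group in depth and in counts on genes that this tissue is not known to use, and the part of either in the results was not tested. Macrophage identity markers (15 genes, none at 0 in either group) summed to 1.65% to 1.85% of counts in the HFD libraries and 0.715% to 1.81% in HFD+MGIG, the lowest being HFD+MGIG 2. Endothelial markers (10 genes, none at 0) summed to 0.201% to 0.241% and 0.0432% to 0.0787%, and adipocyte markers (8 genes, none at 0) to 0.362% to 0.583% and 0.156% to 0.224%. All members were therefore compared on 3 scales: over all genes, over the 2604 genes least open to such counts, and relative to the summed ribosomal protein counts.

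Ribosomal protein genes took a smaller share of all counts in HFD+MGIG, and that difference depended on what the share was taken of. Of all counts, the 86 members took 1.02% in HFD 1, 0.770% in HFD 2 and 0.684% in HFD 3, against 0.654% in HFD+MGIG 1, 0.479% in HFD+MGIG 2 and 0.676% in HFD+MGIG 3. No overlap was present between the groups, but HFD 3 and HFD+MGIG 3 lay close together, and HFD 1 stood highest. The means were 0.825 ± 0.174% and 0.603 ± 0.108% (SD, n = 3 each), a ratio of 0.731. Without each library in turn the ratio was 0.674 to 0.829. As a share of counts on protein-coding genes the values were 1.07%, 0.811% and 0.712% in the HFD libraries and 0.790%, 0.767% and 0.856% in those of HFD+MGIG, with overlapping groups and a ratio of 0.931. As a share of counts on the background-limited genes they were 1.63%, 1.22% and 1.07% against 1.26%, 1.74% and 1.43%, again overlapping, with a ratio of 1.13 in the other direction. Background-limited genes are protein-coding genes with at least 2 exon blocks whose background bound is at most 0.25 of their mean level. For each library, the bound takes the 90th percentile of counts per kb over the silent families and multiplies it by the exon length of the gene. No test was made of these sums. In bulk RNA, fewer cells of a type and less RNA per cell cannot be told apart.

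**Figure D1:**
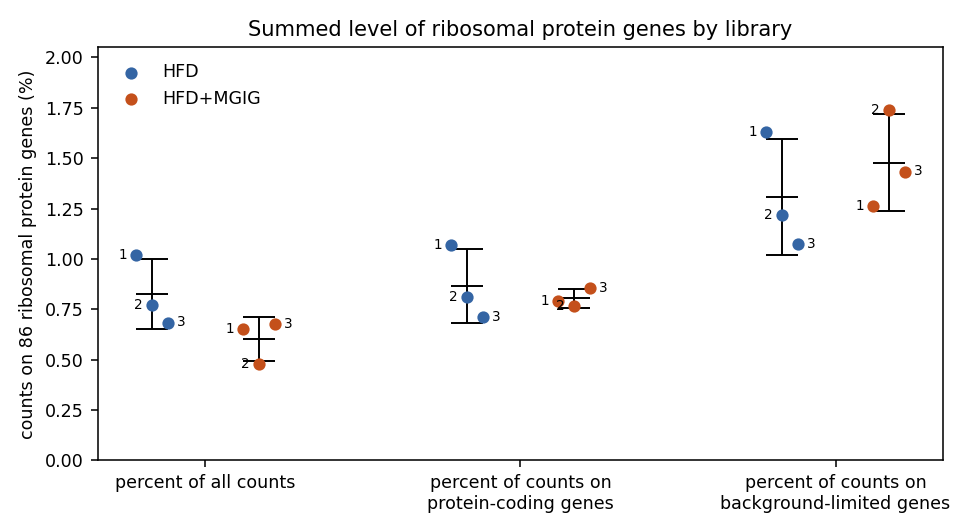
Summed counts of the 86 ribosomal protein genes (y axis, percent) in each of the 6 libraries (points, with the library's number) for 3 denominators on the x axis; black bars are the mean and SD of 3 libraries. The groups separate only as a share of all counts, where every HFD+MGIG library lies below 0.684%, and HFD+MGIG 2 moves from the lowest library to the highest as the denominator changes.

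Within that total, the 2 subunits kept nearly the same proportion. The 60S members held 59.7%, 59.8% and 60.1% of ribosomal protein counts in the HFD libraries and 60.3%, 60.2% and 59.6% in HFD+MGIG. The group means, 59.9 ± 0.230% and 60.02 ± 0.391% (SD, n = 3), differed by less than the spread between libraries.

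The order of levels among members was also much alike in the 2 groups. Levels were compared as CPM (a count divided by its library's total and scaled to a common library size) per kb of the principal mRNA. Rpl13, a 60S protein, was first in both groups, at 386 ± 94.0 CPM per kb in HFD and 273 ± 58.2 in HFD+MGIG. Rpl10, which sits near the site where the subunits and tRNAs meet, was second in both, at 323 ± 42.9 and 223 ± 50.04. Next by their mean over all 6 libraries came Rps6, Rplp0, Rpl3, Rpl41, Rps3a1 and Rps18, between 250 and 281 CPM per kb in HFD and between 182 and 198 in HFD+MGIG. Rps6 is the target of the S6 kinases, Rplp0 is the base of the ribosomal stalk, Rpl3 lies at the peptidyl transferase centre and Rpl41 is the smallest of the proteins. The SDs of neighbours in this order overlapped, so these 6 cannot be ranked among themselves. The median member was at 79.7 CPM per kb in HFD and 63.3 in HFD+MGIG.

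At the foot of the order stood Rpl3l and Rpl10l, paralogues of Rpl3 and Rpl10 known from striated muscle and testis. Rpl3l was at 0, 0.069 and 0.124 CPM in the HFD libraries and 0, 0 and 0.204 in those of HFD+MGIG, and Rpl10l at 0, 0.069 and 0 against 0, 0 and 1.02. In each library 3 counts equal 0.179 to 0.208 CPM for HFD and 0.612 to 1.35 in HFD+MGIG, so all values but that of Rpl10l in HFD+MGIG 3 were at or under this floor. Rpl39l, the paralogue of the exit-tunnel protein Rpl39, was at 0.836, 0.416 and 0.248 CPM in the HFD libraries and 1.69, 3.61 and 0.816 in those of HFD+MGIG. Its HFD+MGIG mean of 2.04 CPM was under its background bound of 5.32 CPM. These 3 were the members left out of the tests by the filter on low counts. Above them came Rps19bp1 at 3.73 ± 1.05 CPM in HFD and 3.03 ± 1.72 in HFD+MGIG, then Rpl5 and Rpl12.

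Spearman's rho between the 2 groups' mean levels over the 86 members was 0.984, and pairs of libraries gave 0.942 to 0.994. These are descriptions over genes that share their libraries and their mRNA lengths. The 5 lowest of the 15 pairs were those with HFD+MGIG 2. With the union of all exons as the length, rho was 0.987 and Rps3a1 came first, and with the longest transcript it was 0.991 and Rpl10 came first, so the leading gene depends on the transcript model.

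**Figure D2:**
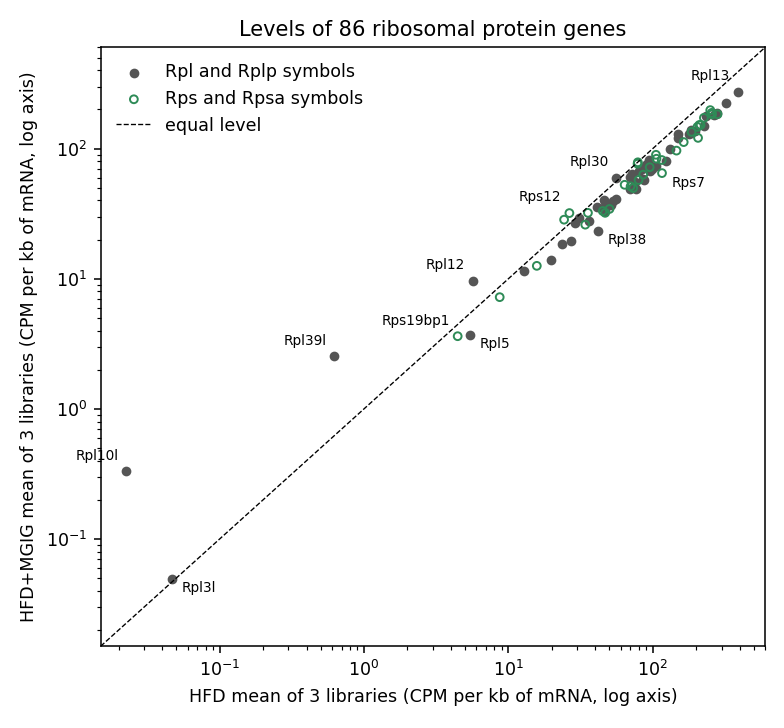
Mean level of each of the 86 ribosomal protein genes in HFD (x axis) and HFD+MGIG (y axis), in CPM per kb of mRNA on log axes, 3 libraries each; filled points are Rpl and Rplp symbols, open points Rps and Rpsa symbols, and the dashed line marks equal levels. Most members lie just below the line. Those above it include Rpl10l, Rpl3l and Rpl39l at the low end, Rpl12 and Rps27rt.

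Tested gene by gene over all 23055 filtered genes, 9 of the 83 tested members were lower in HFD+MGIG and 0 were higher (edgeR's quasi-likelihood test, adjusted p under 0.05). Of all genes tested, 60.8% were called, 17.8% lower and 42.9% higher. That split was 4113 lower and 9902 higher, and with library totals in place of normalization factors it was 2426 and 10428. Of the protein-coding genes tested, 25% were called lower and 26.2% higher, and of the background-limited genes 43% and 2.11%. The share of members called lower, 9 of 83, was thus below each of these shares of lower calls. Unadjusted p was under 0.05 for 31 members, and for 15302 of the 23055 genes tested. The median log2 fold change of the members, HFD+MGIG over HFD, was -0.72, against 0.38 for all genes tested, -0.44 for the protein-coding ones and -0.91 for the background-limited ones. Fitted fold changes were below 0 for 82 of the 83. With library totals the members' median was -0.41, and with a minimum of 5 CPM in 3 libraries it was -0.33. The 5 large-subunit and 4 small-subunit calls came from 49 and 34 tested genes, with medians of -0.71 and -0.72.

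The genes called lower over all genes were Rps16, Rps7, Rps26, Rps23, Rpl38, Rpl24, Rpl39, Rpl8 and Rpl6. They are named because they passed the threshold. On the background-limited scale no member was called. There the log2 fold changes of Rps16, Rpl24, Rpl39, Rpl6 and Rpl8 were 0.19, 0.16, 0.20, 0.10 and 0.04. That of Rpl38 was -0.14, and each of these values was smaller in size than its standard error (SE). Those of Rps7, Rps26 and Rps23 on that scale are not given here. Rps7, a 40S protein that can bind the p53 regulator Mdm2, is encoded at chr12:28630854-28635953 (mm10, minus strand). It was at 154, 87.7 and 89.95 CPM in libraries HFD 1, 2 and 3 and at 69.9, 39.7 and 76.1 CPM in those of HFD+MGIG. Every HFD+MGIG library lay below every HFD library, and HFD 1 stood well above the other two. Over all genes its log2 fold change was -1.10 ± 0.40 (SE, adjusted p = 0.0306 by edgeR), the lowest of the members. Rpl38, a 60S protein known for selective translation of Hox mRNAs in embryos, lies at chr11:114668524-114672331 (plus strand). Its levels were 23.9, 17.9 and 15.8 CPM against 8.43, 5.87 and 17.7 CPM. HFD+MGIG 3 lay within the HFD range, and the log2 fold change over all genes was -1.08 ± 0.41 (adjusted p = 0.0354 by edgeR). In HFD+MGIG 2 Rpl38 rested on 13 counts.

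Rps16, a 40S protein at the decoding site, had the lowest adjusted p of the members, 0.0264 by edgeR. Its levels were 71.6, 51.0 and 44.3 CPM in the HFD libraries and 35.7, 36.6 and 42.2 CPM in those of HFD+MGIG, with a log2 fold change of -0.84 ± 0.30. The groups did not overlap, though HFD 3 and HFD+MGIG 3 were close. Of the 9, 5 had groups without overlap in CPM: Rps16, Rps7, Rps23, Rpl8 and Rpl6. Over all 86 members 21 had every HFD+MGIG library below every HFD library and 0 the reverse. Of all filtered genes, 23.7% were so placed in the lower direction and 48.9% in the higher, and of the background-limited genes 68% in the lower.

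The calls depended on single libraries. HFD 1 was the highest of the 6 libraries for 78 of the 86 members, against 38.3% of background-limited genes, and HFD+MGIG 2 the lowest for 63, against 90.8% of them. Without HFD 1, 0 of 83 members were called. Without HFD+MGIG 2, 37 of 83 were called, a larger share than the 22.4% of all filtered genes called lower in that fit. The members' median log2 fold change was then -0.50, against 0.32 for all genes and -0.61 for the background-limited genes. The shares of protein-coding and background-limited genes called lower in that fit are not given here. Without HFD+MGIG 3, HFD 2 or HFD 3 the members' count was 1, 2 and 2. In those fits 8.86%, 10.4% and 8.31% of all filtered genes were called lower. Without HFD+MGIG 1 the members' count was 12, beside 22.2% of all filtered genes called lower. With the size factors of DESeq2 (RLE) in edgeR it was 10, beside 17.2%. With library totals in place of normalization factors, or a minimum of 5 CPM in 3 libraries, the members' count was 0. DESeq2 called 31 and limma's voom with quality weights 40, all lower, beside 20.2% and 29.9% of all filtered genes called lower by the same tools. In counts simulated for 13244 genes, the test over all filtered genes recovered 11 of 100 genes changed 2-fold and 88 of 100 changed 4-fold. Changes of the size seen here are near or below the smaller of these. The simulation gave every gene the same spread and no background that differs by group, so recovery in these libraries may differ.

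On the background-limited scale 66 members could be tested, and 0 were called by edgeR, with 3 at an unadjusted p under 0.05. Of the whole set of 2604 genes, 656 had an unadjusted p under 0.05, so the members' share was below that of the set. Without HFD 1 the members' count was 21, all with positive fold changes, and without HFD+MGIG 1 it was 15. It was 1 without HFD 2 or HFD+MGIG 2, and 0 without HFD 3 or HFD+MGIG 3. The set's counts in those fits are not given here. Of the 2604 genes of this set, 10.8% were called, 6.26% lower and 4.49% higher. The members' median log2 fold change was 0.25, against 0.03 for the set, and 63 of the 66 were above 0. Removal of the trends that GC content and exon length gave in every library brought the median to 0.17. With mRNA length in place of exon length, an alternative chosen after seeing the data, it was 0.04. Without trend removal, leaving out each library in turn gave 0.12 to 0.43. With the background bound subtracted from the counts, the members' median was 0.54, against -0.18 for the set. With the median of the silent families subtracted in place of the 90th percentile it was 0.29, against 0.03. The direction of the median was therefore opposite to that over all genes, where the same 66 members had a median of -0.74.

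The 3 members with an unadjusted p under 0.05 were Rpl30, Rps25 and Rps27a, all with positive fold changes. Rpl30, a 60S protein, was at 56.6, 51.6 and 40.4 CPM in the HFD libraries and 41.0, 57.4 and 59.7 CPM in those of HFD+MGIG. Its groups overlapped in CPM, and on this scale its log2 fold change was 0.86 ± 0.32 (adjusted p = 0.134 by edgeR). DESeq2 gave it an adjusted p of 0.0475, and edgeR without HFD+MGIG 1 gave 0.0319. Its background bound was 0.767 CPM for HFD and 19.3 CPM for HFD+MGIG. Rps25, a 40S protein known for its part in initiation at internal ribosome entry sites, had a log2 fold change of 0.74 ± 0.28 (adjusted p = 0.145). Rps27a, made as a fusion with ubiquitin, had 0.49 ± 0.21 (adjusted p = 0.19).

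**Figure D3:**
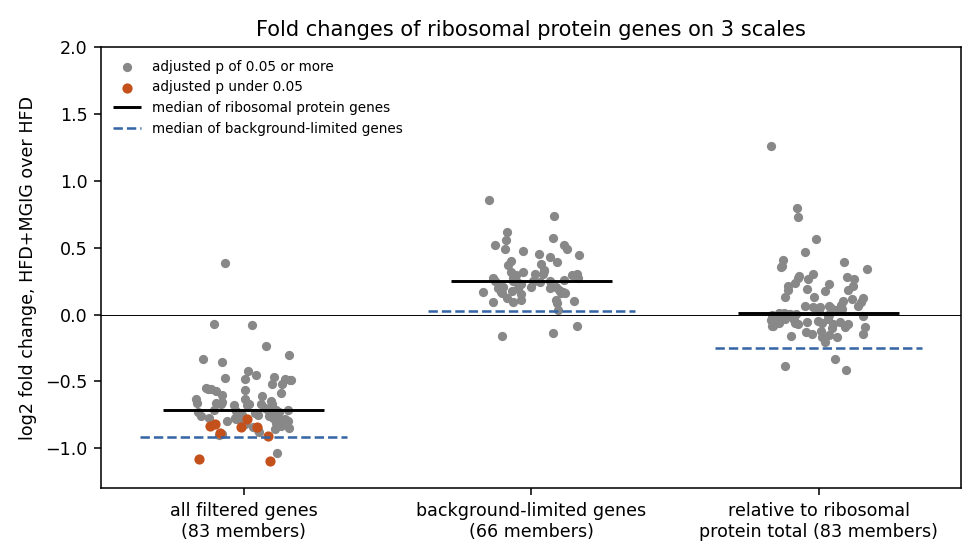
Log2 fold change, HFD+MGIG over HFD (y axis), of each ribosomal protein gene (points) on 3 scales (x axis), with the members' median (black line) and the median of the background-limited genes (dashed line). The members' median is -0.72 over all genes and 0.25 over background-limited genes. Relative to the ribosomal protein total it is 0.02, on a scale that holds the members' centre near 0 by construction. Coloured points, the 9 called genes, appear only on the first scale.

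Relative to the summed ribosomal protein counts, which asks whether any member moved apart from the rest, 0 of 83 members were called and 1 had an unadjusted p under 0.05. Of all 23055 genes tested on that scale, 49.5% were called, 2.49% lower and 47.1% higher, and 12451 had an unadjusted p under 0.05. The members' own sum sets this scale, which holds the centre of their fold changes near 0 by construction. The median was 0.02, and 79 of the 83 were within 0.5 of 0 on the log2 scale, with SEs of 0.22 to 0.75. Counted by overlap alone, 6 members were lower in every HFD+MGIG library than in every HFD library (Rpl10a, Rpl32, Rpl8, Rps2, Rps6 and Rps7) and 11 were higher, against 7.02% and 53.1% of all filtered genes.

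Rps2 is an example from the lower end. This 40S protein at the mRNA entry took 2.77%, 2.70% and 2.71% of ribosomal protein counts in the HFD libraries and 2.29%, 1.80% and 2.38% in HFD+MGIG. The HFD libraries lay close together and all HFD+MGIG libraries lay below them, with a relative log2 fold change of -0.34 ± 0.26 (adjusted p = 0.323 by edgeR). Rps7 took 1.51%, 1.14% and 1.32% against 1.07%, 0.830% and 1.12%, with -0.39 ± 0.25 (adjusted p = 0.24). Rpl38 had the lowest value, -0.41 ± 0.41, but HFD+MGIG 3 at 0.262% lay above the 0.231% to 0.234% of HFD. Rpl8, Rps6 and Rpl4 completed the lowest 6, at -0.20, -0.17 and -0.17.

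At the upper end stood Rpl12, a 60S protein of the stalk base, at chr2:32961559-32965345 (plus strand). It took 0.0744%, 0.0827% and 0.104% of ribosomal protein counts in the HFD libraries and 0.0959%, 0.377% and 0.172% in HFD+MGIG. HFD+MGIG 2 was by far the highest, and HFD+MGIG 1 lay within the HFD range. The relative log2 fold change was 1.26 ± 0.56 (adjusted p = 0.0891 by edgeR), and without HFD+MGIG 1 it was 1.63 (adjusted p = 0.023). Its HFD+MGIG mean of 11.98 CPM lay under its background bound of 23.0 CPM, and its exons overlap those of Lrsam1 on the opposite strand. With the bound subtracted, Rpl12, Rpl5 and Rps19bp1 were called lower, all 3 among the 7 members whose HFD+MGIG mean was under the bound. The other 4 were Rpl10l, Rpl39l, Rpl3l and Rps15a.

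Rps12 followed at 0.80 ± 0.40 (adjusted p = 0.129), with 0.203%, 0.186% and 0.165% in the HFD libraries and 0.206%, 0.510% and 0.268% in those of HFD+MGIG. Its groups did not overlap, but HFD 1 and HFD+MGIG 1 differed only in the third digit. Its HFD+MGIG mean of 18.7 CPM compares with a bound of 12.98 CPM, and it hosts 3 snoRNAs. Rps27rt was at 0.73 ± 0.44, Rpl30 at 0.57 ± 0.29, Rps25 at 0.47 ± 0.26 and Rps13 at 0.41 ± 0.24. Of these, Rps25, Rps13 and Rps27rt had groups that did not overlap. Over the 83 tested members, Spearman's rho of the relative fold change with the mean level per kb was -0.42, and with mRNA length -0.09. The 17 tested members outside the background-limited set had a median relative fold change of 0.27, and the 66 inside it 0.00. Lower levels, more background per count and a higher relative fold change went together, and the part of background in this was not tested.

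**Figure D4:**
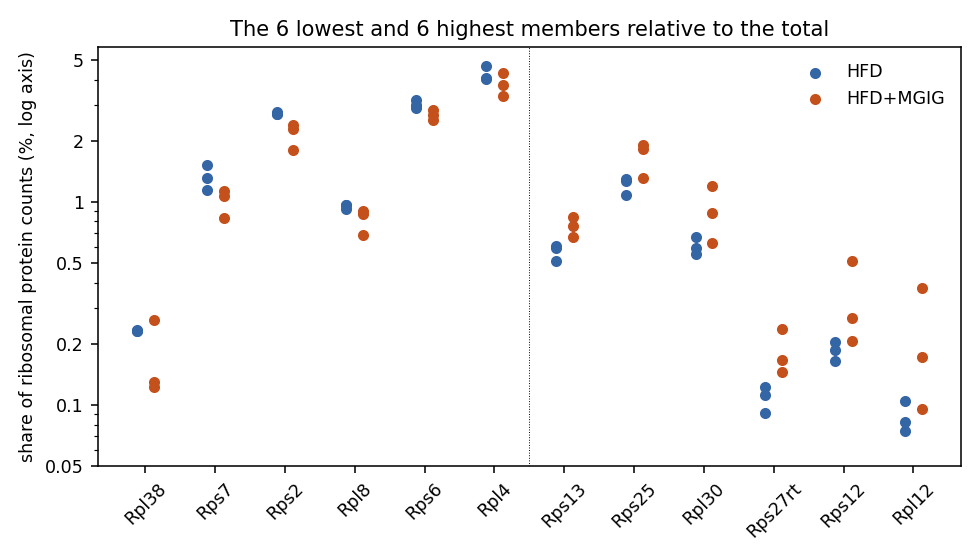
Share of ribosomal protein counts (y axis, percent, log axis) in each HFD and HFD+MGIG library (points) for the 6 members with the lowest and the 6 with the highest relative log2 fold change among members that reach 10 CPM in the higher group. The groups do not overlap for Rps2, Rps7, Rps6 and Rpl8 on the left, nor for Rps12, Rps13, Rps25 and Rps27rt on the right. The HFD+MGIG libraries of Rpl12 run from 0.0959% to 0.377%.

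Paralogues that replace or accompany a parent protein were compared with it per kb. Rpl22l1 was more abundant than Rpl22, an RNA-binding 60S protein: 69.7 ± 15.9 against 12.9 ± 3.31 CPM per kb in HFD, and 49.0 ± 12.8 against 11.6 ± 1.51 in HFD+MGIG. Their ratio was 4.94, 6.38 and 5.06 in the HFD libraries and 6.24, 2.82 and 4.11 in those of HFD+MGIG, so the groups overlapped. Rps27l, a p53 target, stood at 0.380 to 0.442 of Rps27 in HFD and 0.419 to 0.444 in HFD+MGIG. Rpl36al and Rpl36a were near equal, with ratios of 1.00 to 1.26 and 0.897 to 1.05. Rpl7l1, which acts in ribosome assembly, was at 0.119 to 0.156 of Rpl7 in the HFD libraries and at 0.110 to 0.160 in those of HFD+MGIG. The 2 paralogues with the lowest p in the fit over all genes among those that are members were Rpl22l1 at -0.78 ± 0.33 (adjusted p = 0.0565) and Rps27l at -0.72 ± 0.32 (adjusted p = 0.0682). Neither passed the threshold. Rps4l, annotated as a transcribed processed pseudogene and so no member, fell from 17.1 ± 4.93 to 7.94 ± 1.34 CPM (log2 fold change -1.41 ± 0.34, adjusted p = 0.00342 by edgeR).

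Rps27rt, the intronless copy of Rps27, is encoded at chr9:114982366-114982739, and Rps27 at chr3:90212522-90213651 (both minus strand). Rps27rt was at 0.133, 0.118 and 0.101 of Rps27 per kb in the HFD libraries and 0.218, 0.278 and 0.131 in HFD+MGIG, with HFD+MGIG 3 inside the HFD range. Of the 50-base windows of the Rps27 mRNA, 98.6% occur in the transcript of another gene, most often Rps27rt, and of Rps27rt 91.1%. Reads of the pair can be split by the counting, so their separate levels are uncertain.

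Such shared sequence is common in the family. Shared 50-base windows were present in 82 of the 86 members, and for 34 members they made up over 50% of the mRNA. The median member shared 42.5% of its windows and matched 8 pseudogenes. Rpl3l, Rpl39l and Rps19bp1 were among those that shared none. Spearman's rho of the shared part with the relative fold change was -0.02 over 83 members, and with the level per kb 0.43 over 86. Exons of 19 members overlap a gene on the opposite strand and exons of 24 a snoRNA, and the strand of the counts is not given in the sources used here. With the listed paralogues and all members that share exons with another gene left out, 41 members remained, and their summed share was 0.379 ± 0.0843% in HFD and 0.274 ± 0.0496% in HFD+MGIG, a ratio of 0.723.

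The family has 307 named pseudogenes in the table. Of these, 41 passed the filter, and 22 of these were called higher and 5 lower; the median log2 fold change was 3.37. Among all 1359 pseudogenes tested, 1204 were called higher and 24 lower, and the median was 4.74. Rpl10-ps2 was at 0.060, 0 and 0 CPM in the HFD libraries and 1.69, 4.97 and 2.04 CPM in those of HFD+MGIG. All 307 together took 0.0222% to 0.0325% of counts in the HFD libraries and 0.0245% to 0.0462% in HFD+MGIG, ranges that overlapped. Genes of this kind pass the filter where they are high, so the counts among the 41 say nothing of the other pseudogenes.

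Of ribosomal proteins with other symbols, Fau, the precursor of eS30, fell from 97.0, 69.1 and 60.1 CPM to 51.6, 31.2 and 59.7 CPM (log2 fold change -0.93 ± 0.36, adjusted p = 0.0416 by edgeR over all genes). Its groups did not overlap, but HFD 3 and HFD+MGIG 3 lay close together. Rack1, a signalling scaffold on the 40S subunit, was at -0.66 ± 0.36 (adjusted p = 0.128). Within the background-limited genes they were at 0.02 and 0.34, and neither was called.

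Translation factors and other TOP mRNAs were called lower for 6 of 20 genes and higher for 0 over all genes, and the median was -0.83. Beside this and the next lists stand 25% of protein-coding genes called lower, with a median of -0.44, and 43% of background-limited genes, with a median of -0.91. Eif4b, which aids the scanning helicase, fell from 83.9 ± 2.50 to 42.8 ± 14.8 CPM (log2 fold change -1.24, adjusted p = 0.0124 by edgeR), and Eef1g, an elongation factor subunit, by 1.10 (adjusted p = 0.0228). Among background-limited genes 0 of 19 were called and the median was 0.13. Among 36 ribosome biogenesis genes, 9 were called lower and 2 higher (Wdr12 and Mdn1), a lower share equal to the 25% of protein-coding genes, and the median was -0.72. Bop1, of the 60S processing complex PeBoW, fell from 30.6 ± 1.62 to 12.7 ± 5.10 CPM (log2 fold change -1.52, adjusted p = 0.00272). Wdr12, of the same complex, rose from 26.0 ± 5.35 to 72.2 ± 24.6 CPM (1.12, adjusted p = 0.00712), and its exons overlap those of Carf on the opposite strand. Relative to the ribosomal protein total, 2 of the 36 were higher, again Wdr12 and Mdn1, and 0 lower.

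Of 20 genes of mTORC1, the S6 kinases and their control of translation, 9 were called lower and 0 higher over all genes. The median was -0.76. The share called lower was above the 25% of protein-coding genes and near the 43% of background-limited genes, a set that holds 5 of the 20. Myc, a transcription factor that drives ribosome biogenesis, was called lower on each of the 3 scales. Genes of the list outside those 5 could not be called on the background-limited scale. There 6.26% of genes were called lower, and relative to the ribosomal protein total 3.52% of protein-coding genes. Fits with a library left out are not given here for Myc. Myc was at 184, 194 and 163 CPM in the HFD libraries and 80.0, 53.7 and 84.0 CPM in those of HFD+MGIG, without overlap. Its log2 fold change was -1.60 ± 0.39 over all genes (adjusted p = 0.00363 by edgeR), -0.61 ± 0.15 on the background-limited scale (adjusted p = 0.033) and -0.90 ± 0.25 relative to the ribosomal protein total (adjusted p = 0.0132). Mtor itself fell from 19.0 ± 2.62 to 7.13 ± 4.26 CPM over all genes (-1.61, adjusted p = 0.00662), and relative to the ribosomal protein total it was at -1.001 (adjusted p = 0.0952). Larp1 fell by 0.997 (adjusted p = 0.0136) over all genes and was at -0.31 (adjusted p = 0.394) relative to the total. In the other direction, Eif4ebp1, which restrains the cap-binding factor eIF4E, was at 0.86 on the background-limited scale (adjusted p = 0.0413 by edgeR). On that scale 4.49% of the 2604 genes were called higher. The S6 kinase Rps6kb1 was at 1.02 relative to the ribosomal protein total (adjusted p = 0.017 by edgeR), the 1 gene of the 20 called higher. On that scale 30.9% of protein-coding genes were called higher. Over all genes the highest log2 fold change of the list was 0.22.

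Mitochondrial ribosomal protein genes, which serve the separate ribosome of that organelle, were called lower for 9 and higher for 2 (Mrpl48 and Mrpl23) of 78 over all genes, and the median was -0.53. Relative to the cytosolic ribosomal protein total, 12 were called higher and 0 lower and the median was 0.25, beside 30.9% of protein-coding genes called higher and a median of 0.29. Their summed share was 0.137% to 0.166% of counts in the HFD libraries and 0.172% to 0.208% in HFD+MGIG, without overlap. This separation rested on Mrpl48: with that gene left out, an alternative added after seeing the data, the shares were 0.130% to 0.163% and 0.137% to 0.141%, which overlap, with means of 0.142 ± 0.018% and 0.139 ± 0.0017%. Mrpl48 was at 32.7, 68.2 and 38.1 CPM in the HFD libraries and 312, 702 and 368 CPM in those of HFD+MGIG (log2 fold change 2.92 ± 0.49, adjusted p = 0.000347 by edgeR), and its exons overlap those of Rab6a on the opposite strand. Mrps15, of the small subunit, fell from 19.8 ± 3.44 to 10.8 ± 1.57 CPM (-1.15, adjusted p = 0.0069).

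**Figure D5:**
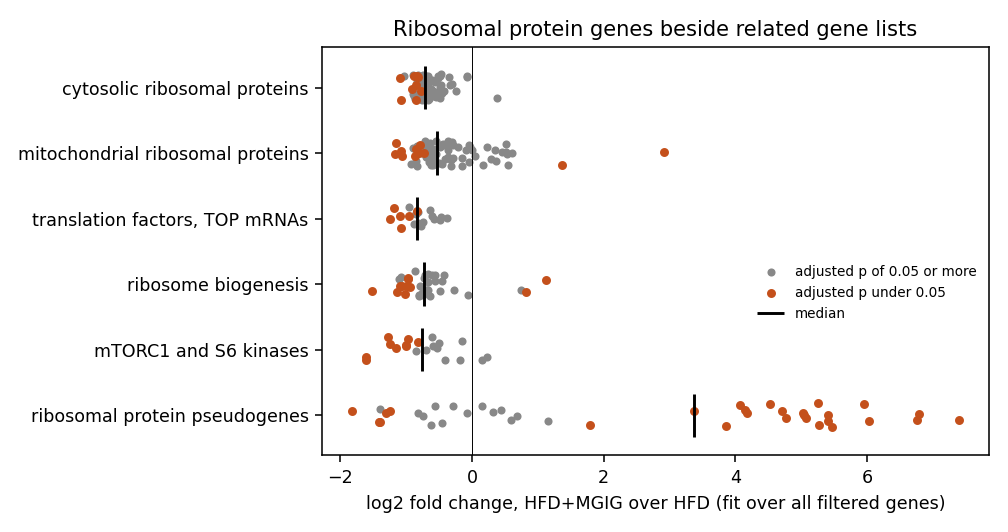
Log2 fold change, HFD+MGIG over HFD (x axis), of the genes (points) of 6 lists (y axis) in the fit over all filtered genes, with each list's median as a vertical line. Lists of cytosolic and mitochondrial ribosomal proteins, translation factors, biogenesis and mTORC1 genes have medians from -0.83 to -0.53, and ribosomal protein pseudogenes 3.37.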

How the data were processed

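The authors deposited estimated counts by gene (fractional for 33.3% to 41.8% of detected genes per library), rounded here to whole numbers. Per the submitters' processing notes, fastp, HISAT2, StringTie and mm10 were used; their versions and the counting program: not given in the sources used here. Per the labels' protocols, libraries came from total RNA with SMART-Seq v4, which amplifies cDNA. Symbols, lengths and positions came from GENCODE M21, which held 51884 of 57180 IDs; 0 sample columns were left unused.

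edgeR 4.0.16 in R 4.3.3 was fitted with a robust quasi-likelihood, no term but the group, TMM factors, the filterByExpr filter and Benjamini-Hochberg adjustment at 0.05, on all filtered genes, on background-limited genes with their own factors, and with ribosomal protein counts as library size and no factor. The fits over all genes and relative to the total were tested on simulated counts. Alternatives were DESeq2 1.42.0 and its size factors (RLE), library totals, limma 3.58.1 voom, 2 other filters, the replicate block, background subtraction, trend removal, other lengths and each library left out. Depth sets the precision: a floor of 3 counts is worth more CPM in HFD+MGIG, and floors cover counting error only. The members and lists were chosen with earlier results of these data known.

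Named genes were the 8 members with the highest level per kb, the 6 highest and 6 lowest relative to the total among those that reach 10 CPM in the higher group, paralogues with their parents, Rps19bp1, members under 10 counts, and up to 4 genes with the smallest p of other lists, of which a part is printed. Called members, members near the threshold or under the bound, and those without overlap were named after their values were seen. The trend on GC content and mRNA length (4 degrees of freedom each) was added after seeing the data.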

Additional observations from a re-analysis of the deposited data

How the results depend on the processing

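Over all genes, 14015 genes were called, 6156 with a minimum of 5 CPM in 3 libraries, 23155 without a filter, and 11216 to 15006 with a library left out; with a library left out, lower calls made up 8.31% to 22.4% of genes tested. The 9 member calls became 31 with DESeq2, 40 with voom, 14 without a filter and 10 with RLE size factors. They became 5 with the replicate block, 0 with library totals or at least 5 CPM, and 0 to 37 with a library left out. Of the 9, 8 remained without a filter, 7 with voom or RLE size factors, 6 with DESeq2 and 5 with the block. Same-numbered libraries deviated together at correlations of 0.048, 0.26 and 0.0792, so the numbers were not taken to pair samples. On the background-limited scale DESeq2 called 1, and a library left out gave 0 to 1. Relative to the total, 3 were called lower with the 90th percentile subtracted, and 0 to 1 with a library left out. The summed ratio, 0.731, was 0.931 over protein-coding genes, 1.13 over background-limited genes, 0.899 with background subtracted and 0.674 to 0.829 with a library left out. The cause of these shifts was not tested.

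Named members near 0 over all genes turned positive under some settings. With at least 5 CPM, Rpl30 was at 0.19, Rps12 0.37, Rps13 0.068, Rps25 0.10 and Rps27rt 0.33; with library totals Rpl30 was at 0.11, Rps12 0.28, Rps25 0.018 and Rps27rt 0.24. DESeq2 gave Rps12 0.085 and Rps27rt 0.055, RLE 0.085 and 0.056, and voom Rps12 0.052, Rps25 0.10 and Rps27rt 0.015. With a library left out, Rps12 ran from -0.24 to 0.13 and Rps27rt from -0.28 to 0.14. In the other pairs of a named member and a setting the direction was kept: 293 stayed on their side of the threshold, 34 passed it and 28 lost it. The 2214456 counts of HFD+MGIG 2 limit members under about 10 CPM.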
